A study of Mus musculus with 8 samples.

Results

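Car3 encodes carbonic anhydrase 3, a cytosolic enzyme of skeletal muscle. It is 1 of 7053 named genes in the table of array values, where 2 of the 9232 probes measure it, and both probes are annotated to the same Car3 transcript. The 2 probes were taken by their gene symbol. The gene itself was chosen by its intensities on these arrays, 1 probe reaching close to the highest value, so its levels are given here as a description with no test. The same holds for the genes that were picked for their correlation with it.

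The RNA came from the extensor digitorum longus (EDL), a hind limb muscle composed mainly of fast fibres. Sod1 knockout mice (sod-/- in the labels) lack the copper-zinc superoxide dismutase, by the labels with no restriction to a tissue, and were set against wild-type mice; all were 7 months old. There were 4 arrays of each genotype and 8 in all. Neither the strain nor the sex of the mice is given in the labels used here, and they do not state whether each array is a separate animal, so the spread behind each p may be technical. The study asks how muscle transcription responds to lasting oxidative stress.

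Carbonic anhydrases catalyse the interconversion of carbon dioxide and bicarbonate and so serve acid-base balance and gas transport. Carbonic anhydrase 3 hydrates carbon dioxide far more slowly than its relative carbonic anhydrase 2, but it is among the abundant soluble proteins of slow oxidative muscle fibres and of adipocytes. Its reactive cysteines take up glutathione under oxidative conditions, and it is known as a target of protein oxidation in muscle.

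Before the results, the arrays themselves need a word. The 6 muscle fibre markers (Ckm, Acta1, Tnnt3, Tnni2, Mylpf and Pvalb) lay above the array median on all 8 arrays, with a mean log2 intensity of 13.84 to 13.93 on knockout arrays and 13.77 to 13.84 on wild-type arrays. Sod1 was not analysed here, so the labels were not checked against the deleted gene. Knockout replicate 2 was the 1 array whose profile correlated more closely with the other genotype: its median Pearson r across tested probes was 0.943 with the wild-type arrays and 0.929 with the other knockouts. For the remaining knockout arrays the median r was 0.926 to 0.937 with the wild type and 0.935 to 0.943 within the knockout. Wild-type replicate 2 also stood apart, with a median r of 0.927 within the wild type and 0.912 with the knockout arrays. The other wild-type arrays had 0.956 to 0.959 within their genotype. For Car3 and for some of the genes and lists whose values knockout replicate 2 moves, values are given with and without it.

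Car3 signal was higher in the knockout muscle by both probes. The brighter probe read a log2 intensity of 13.68, 11.44, 13.30 and 13.58 in knockout replicates 1 to 4, against 10.61, 10.89, 11.37 and 11.84 in wild-type replicates 1 to 4. Knockout replicates 1, 3 and 4 lay above every wild-type array, whereas knockout replicate 2 lay inside the wild-type range, so the genotypes overlapped at this probe. The mean was 12.9997 ± 1.05 in knockout muscle and 11.18 ± 0.54 in wild-type muscle (SD, n = 4 each). The difference of 1.82 on the log2 scale (standard error 0.59) amounts to 3.53-fold.

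At the dimmer probe the log2 intensity was 12.88, 10.35, 11.96 and 12.58 in knockout replicates 1 to 4, against 8.72, 8.05, 8.89 and 9.43 in wild-type replicates 1 to 4. Here all 4 knockout values lay above all 4 wild-type values, with a gap of 0.92 between the lowest knockout and the highest wild-type array. Such separation upwards was seen at 88 of the 4698 tested probes, or 1.87%, and downwards at 128, or 2.72%; as the gene was picked with these values known, nothing is read from that share. The mean was 11.94 ± 1.13 in knockout muscle and 8.77 ± 0.57 in wild-type muscle (SD, n = 4 each). The difference of 3.17 (standard error 0.63) amounts to 8.97-fold, and it was the second in size among the 4698 tested probes, after Aif1l. The brighter probe came 14 in that order of absolute differences.

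**Figure D1:**
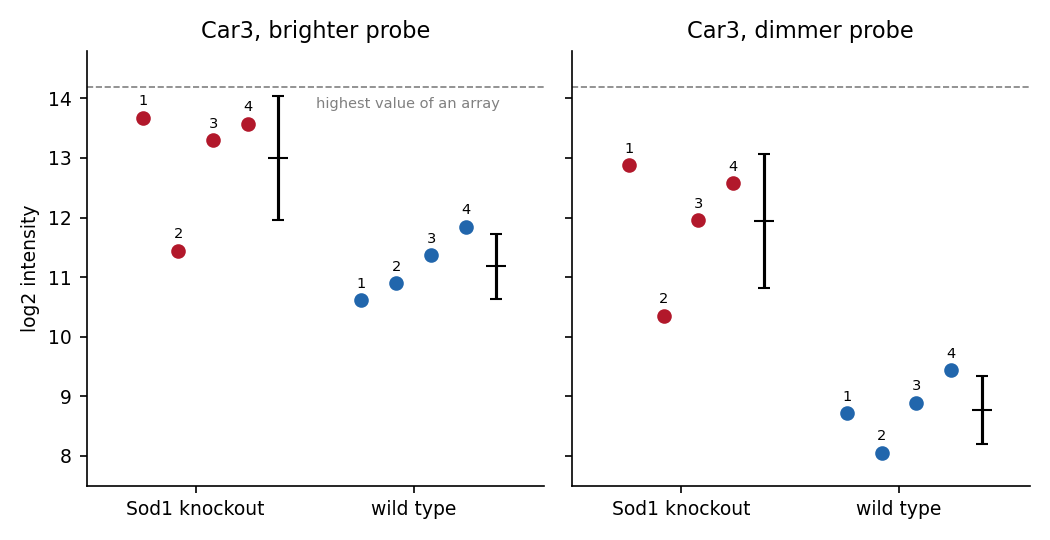
Log2 intensity of the brighter (left panel) and dimmer (right panel) Car3 probe on each array, with Sod1 knockout arrays in red and wild-type arrays in blue; numbers are replicates, and bars at the side show the mean and SD of 4 arrays. The dashed line marks 14.19, the highest value on every array, and knockout replicate 2 sits at 11.44 and 10.35, below the other 3 knockout arrays in both panels.

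Most of the spread within the knockout came from replicate 2. It stood 1.86 below the next knockout array at the brighter probe and 1.61 below it at the dimmer probe. Without that array the knockout means were 13.52 ± 0.20 and 12.47 ± 0.47 (SD, n = 3), and the differences from the wild type were 2.34 (5.06-fold) and 3.70 (12.95-fold). Replicate 2 nonetheless was not at the wild-type level on both probes: it exceeded the wild-type mean by 0.26 at the brighter probe and by 1.58 at the dimmer probe. The part of this array's overall profile in that split was not tested.

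The size of the difference depended on the probe. The dimmer probe gave a difference larger by 1.35 log2 units than the brighter one. The brighter probe exceeded the dimmer by 0.80, 1.09, 1.34 and 1.00 in knockout replicates 1 to 4, against 1.90, 2.84, 2.48 and 2.41 in wild-type replicates 1 to 4, so the interval between the probes was narrower on every knockout array. On the arrays with most Car3 signal the brighter probe was close to the top of the scale: it lay within 1 log2 unit of the highest value, 14.19, on 3 knockout arrays and on 0 wild-type arrays, and the dimmer probe did so on 0 arrays. Differences can be compressed near that value, and the part of this compression in the gap between probes was not tested. Knockout replicate 2 read 11.44 at the brighter probe, 2.75 below the highest value, and its interval was 1.09. Wild-type replicates 3 and 4 read 11.37 and 11.84 there, with intervals of 2.48 and 2.41.

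Ranked by intensity among the 9232 probes of its array, the brighter probe stood at 55, 457, 99 and 69 in knockout replicates 1 to 4, against 789, 663, 482 and 339 in wild-type replicates 1 to 4. For the dimmer probe the places were 140, 938, 309 and 187 in the knockout, against 2342, 3126, 2146 and 1620 in the wild type. A place is an order of probe brightness and not of transcript amount, since probes differ in how they bind.

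The probes ordered the arrays nearly alike. Over the 8 arrays Pearson's r between them was 0.959 and Spearman's rho 0.952, and after subtracting each genotype's mean r was 0.935. Within the knockout arrays alone r was 0.981, and within the wild type alone 0.757. Knockout replicates 1, 4 and 3 took the first 3 places in that order at both probes. Wild-type replicate 4 was the highest wild-type array at both, and the wild-type arrays spanned 1.23 log2 units at the brighter probe and 1.38 at the dimmer one. These correlations are over 8 arrays of which 3 lie apart from the other 5, and both probes share each array's RNA and normalization.

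The other carbonic anhydrases were mostly dim. Of the 15 other family members listed, 5 were among the measured genes: Car2, Car4, Car9, Car11 and Car14. Only Car11 and Car14 passed the filter on dim probes, which asked for a value above the array median in at least 4 of 8 arrays. Neither passed limma's test over all tested probes (0 of 2, against a background of 0 of 4698 probes, or 0%).

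Car2 encodes the fast, widely expressed cytosolic enzyme and is the next protein-coding gene to Car3 on chromosome 3 in the RefSeq order of GRCm38.p6, Car1 lying on the other side. Its log2 intensity was 5.40, 5.41, 5.39 and 5.09 in knockout replicates 1 to 4, against 4.51, 4.22, 4.40 and 4.55 in wild-type replicates 1 to 4. All knockout values, replicate 2 included, were higher than all wild-type values, with a mean of 5.32 ± 0.16 and 4.42 ± 0.15 (SD, n = 4 each) and a difference of 0.90. Every value was below the array median of 6.93, in a range where a probe may carry little but background. With no filter on dim probes, limma gave Car2 an adjusted p of 0.249 over the 9232 probes, so the difference did not pass. Car1, Car13 and the other close neighbours were not analysed here.

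Car4, an enzyme anchored to the outer membrane of capillaries and fibres, read 6.53, 4.89, 4.14 and 6.60 in knockout replicates 1 to 4, against 6.19, 6.25, 6.53 and 6.18 in wild-type replicates 1 to 4. Knockout replicates 2 and 3 were low while replicates 1 and 4 matched the wild type or exceeded it, and the means were 5.54 ± 1.22 and 6.29 ± 0.16 (SD, n = 4 each). Car14, a membrane enzyme with an extracellular active site, averaged 8.11 ± 0.73 on knockout arrays and 7.91 ± 0.95 on wild-type arrays, a difference of 0.19 with overlapping arrays. Car11, a relative that lacks enzyme activity, averaged 6.84 ± 0.41 on knockout arrays and 7.27 ± 0.43 on wild-type arrays, a difference of -0.43. Car9, the tumour-associated membrane form, was below the median on every array, with 3.46 to 4.33 on knockout arrays and 3.57 to 4.30 on wild-type arrays.

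**Figure D2:**
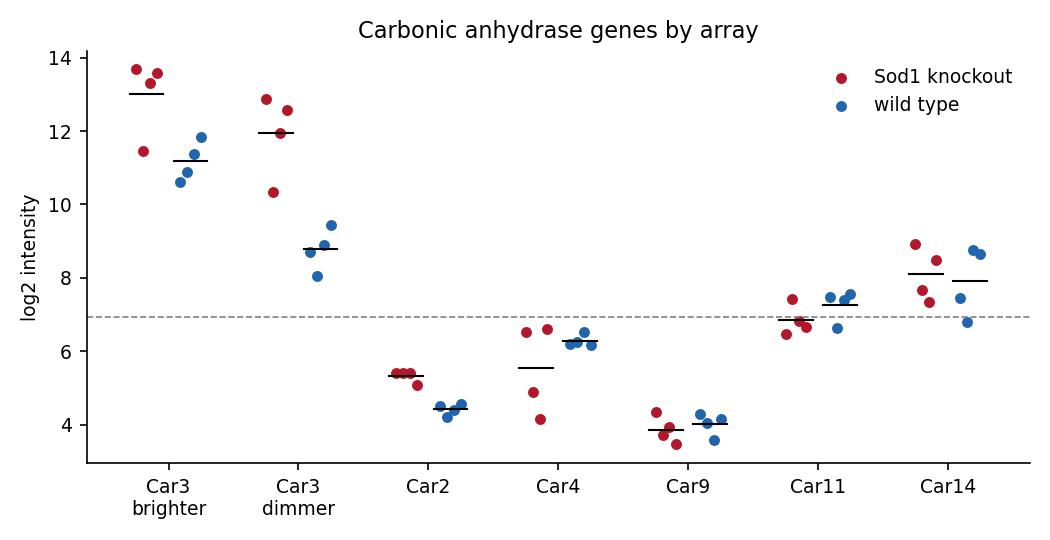
Log2 intensity of the 2 Car3 probes and of the 5 other carbonic anhydrase genes on each array, Sod1 knockout (red) left of wild type (blue) for each gene; short lines are means of 4 arrays and the dashed line is the array median of 6.93. Car2, Car4 and Car9 lie below the median on all arrays, and Car2 is the 1 gene besides Car3 with a probe at which the genotypes are separate.

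Genes that move bicarbonate, protons, lactate and water across membranes showed no common direction. Of 20 listed, 11 were measured and 6 passed the filter, 3 of them higher and 3 lower in the knockout, with a median difference of 0.03 against -0.04 over the 3823 genes tested. None passed (0 of 6). Atp6v1a, a subunit of the proton pump of acidic organelles, differed by 0.31 and Bsg, the chaperone of lactate carriers, by -0.29. The water channels Aqp1 and Aqp4 differed by -0.33 and 0.96, and for Aqp4, the fast fibre channel, the arrays ranged between 6.62 and 9.69 with the knockout and between 3.79 and 8.32 with the wild type. The Aqp4 difference was 0.02 without wild-type replicate 2 and 0.24 without knockout replicate 3, and that of Aqp1 lay between -0.62 and -0.15 as single arrays were left out.

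Over the whole table limma with Benjamini-Hochberg adjustment called 0 of 4698 probes at 0.05 (0%), and 439 had an unadjusted p under 0.05. Leaving out knockout replicate 2 gave 36 calls, or 0.766%, of which 33 were higher and 3 lower in the knockout. With all arrays, 1678 of the 3823 tested genes, or 43.9%, were higher in the knockout. The lists below are read against these shares, and Car3 is left out of them.

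Car3 is typical of slow fibres, so slow fibre genes were read beside it. Of 19 listed genes 16 were measured and 11 passed the filter, 9 of them higher and 2 lower in the knockout, with a median difference of 0.25 and 0 past the threshold. Atp2a2, the slow calcium pump, had 10.02, 8.52, 9.51 and 9.87 in knockout replicates 1 to 4, against 8.01, 9.16, 8.30 and 8.09 in wild-type replicates 1 to 4, and its r with the brighter Car3 probe was 0.83. Here replicate 2 was again the lowest knockout array, and the difference was 1.09 (adjusted p = 0.465). Csrp3, a Z-disc LIM protein, ran otherwise: 12.06, 13.12, 10.33 and 11.76 in knockout replicates 1 to 4, against 9.88, 10.40, 10.54 and 10.59 in wild-type replicates 1 to 4.

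For Csrp3 it was replicate 2 that read highest of all arrays, and r with the brighter and dimmer Car3 probe was 0.36 and 0.52. A second Csrp3 probe had a larger difference, 1.93, with no overlap, and r of 0.39 and 0.57. Fhl1, a LIM protein, and Ldhb, the heart-type lactate dehydrogenase, differed by 0.49 and 0.43 without passing. The contractile members were singled out after their values were seen. Among those that passed the filter Tnnt1 and Tnnc1 differed by 0.25 and 0.06, and Myl2 by -0.15. Of those below the filter Tnni1, the slow troponin I, differed by 0.86, with r of 0.90 with the brighter Car3 probe, and Myh7, the slow myosin heavy chain, by 0.77, with r of 0.40. Myl3, a slow myosin light chain, was the 1 slow fibre gene called without knockout replicate 2, and it was lower in the knockout. Its difference was -1.17 with all arrays and -1.97 without that array. Its r with the brighter and dimmer Car3 probe was -0.83 and -0.75.

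Fast fibre genes, many of them close to the highest value, had 11 of 16 tested members higher in the knockout and 5 lower, with a median difference of 0.11 and 0 past the threshold. Their arrays did not overlap for 3 genes, Tnnc2, Mylpf and Actn3, where 4.58% of all tested genes had no overlap in either direction. The differences were small, 0.19 for Tnnc2, the fast troponin C, and 0.17 for Mylpf, the fast regulatory light chain. Myl1, another fast light chain, differed by 0.41 and Casq1, the calcium store protein, by 0.63, which was 0.21 without wild-type replicate 2 and 0.38 without knockout replicate 3.

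Of the 7 lists, the largest median difference was that of the denervation-responsive genes, those known to change when a muscle loses its nerve. Of 15 listed, 8 were measured and 6 passed the filter; all 6 were higher in the knockout, with a median difference of 0.95 against -0.04 over all genes. Without knockout replicate 2 the median was 1.62, again against -0.04 over all genes. With all arrays 0 of 6 passed the threshold, and without knockout replicate 2 there were 2 calls, Chrna1 and Chrnb1, where 0.766% of all probes were called. The genotypes did not overlap for 1 of the 6 with all arrays (4.58% of all genes) and for 4 of the 6 without that array (15.3% of all genes). An earlier reading of these arrays had already shown this list to be higher, so it adds no independent evidence.

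Chrna1, the alpha subunit of the muscle acetylcholine receptor, had 12.25, 8.98, 11.62 and 11.98 in knockout replicates 1 to 4, against 9.43, 9.24, 9.43 and 9.34 in wild-type replicates 1 to 4. As with Car3, replicates 1, 3 and 4 were high and replicate 2 was not, and within the high arrays the order was the same, replicate 1 first, then 4, then 3. Its r with the brighter and dimmer Car3 probe was 0.943 and 0.912. A second Chrna1 probe gave 0.928 and 0.907. Chrnb1, the beta subunit, had 9.61, 8.11, 9.30 and 9.27 in the knockout, against 8.32, 7.87, 8.27 and 8.13 in the wild type, with r of 0.928 and 0.931.

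The other members differed in how closely they followed the brighter Car3 probe. Ankrd1, a stress-responsive ankyrin repeat protein, had 12.16, 12.21, 10.05 and 11.75 in knockout replicates 1 to 4, against 9.67, 8.76, 6.25 and 9.58 in wild-type replicates 1 to 4. All knockout values were higher, replicate 2 the highest of them. The r of Ankrd1 was 0.54 with the brighter Car3 probe and 0.70 with the dimmer one. For Hdac4, a histone deacetylase of the nerve activity pathway, and Gadd45a, a stress protein raised in denervated muscle, r with the brighter probe was 0.85 and 0.80. With the dimmer probe it was 0.70 and 0.64, so Ankrd1 did not stand apart from them there. Rapsn, which anchors acetylcholine receptors, had r of -0.08 with the brighter and 0.11 with the dimmer probe, and differed by 0.19. Rapsn, Gadd45a and Ncam1 were singled out after their values were seen. Ncam1, an adhesion molecule of denervated fibres, did not pass the filter; it read 9.32, 5.95, 8.71 and 9.03 in the knockout, against 5.81, 6.65, 5.80 and 5.35 in the wild type, the same split of replicate 2 from the other knockouts.

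**Figure D3:**
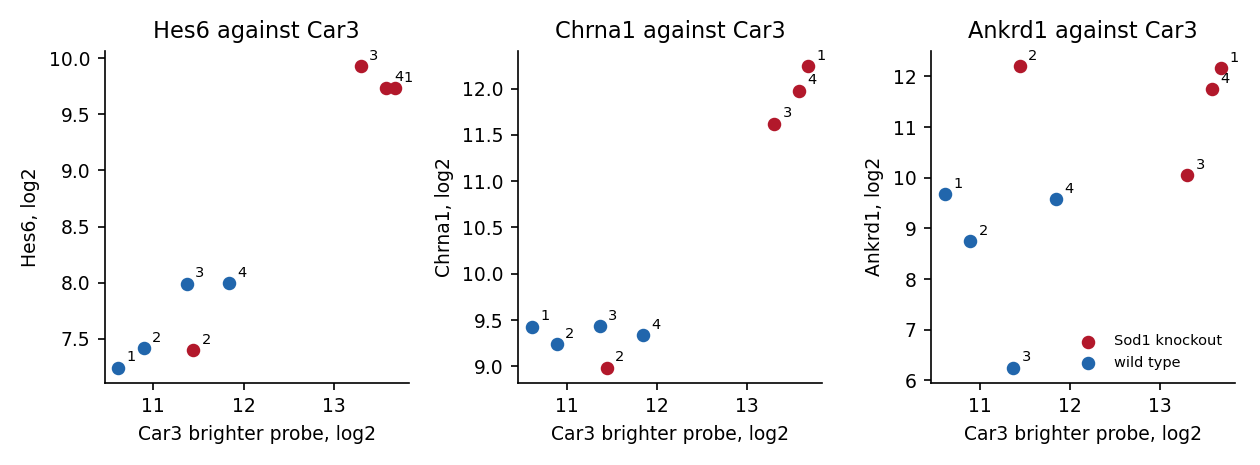
Log2 intensity of Hes6, Chrna1 and Ankrd1 (vertical axes) against the brighter Car3 probe (horizontal axis) over 8 arrays, Sod1 knockout in red and wild type in blue with replicate numbers. Knockout replicate 2 falls among the wild-type arrays for Hes6 at 7.40 and just below them for Chrna1 at 8.98, but is the highest array for Ankrd1 at 12.21.

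Adipocytes also hold much Car3, so their markers were set beside it. Of 7 defining adipocyte genes 1 was measured: Fabp4, the fatty acid binding protein of fat cells, lay below the median on all arrays, at 4.10 to 4.50 on knockout arrays and 4.53 to 5.30 on wild-type arrays, lower on every knockout array. A probe in that range may carry little but background. With no filter on dim probes, limma gave Fabp4 an adjusted p of 0.386, so the difference did not pass. Adipoq, Cfd, Plin1, Cidec, Lep and Retn were not analysed here. On the wider list of 18 genes, 9 were measured and 6 passed the filter, 2 higher and 4 lower in the knockout, with a median difference of -0.11 and 0 past the threshold. The median turned to 0.31 without knockout replicate 3 and to 0.02 without wild-type replicate 2. The mean over the 9 genes, relative to the wild-type mean, was 0.63, -0.40, -0.48 and 0.52 in knockout replicates 1 to 4, against -0.19, 0.43, 0.01 and -0.25 in wild-type replicates 1 to 4, so replicate 3, high in Car3, was low in this list.

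Scd1, a fatty acid desaturase, was 7.71 to 8.25 on knockout arrays and 6.34 to 7.26 on wild-type arrays, with no overlap and an adjusted p of 0.379. Cidea, a lipid droplet protein, had 8.91, 5.88, 7.28 and 8.91 in knockout replicates 1 to 4, against 6.06, 7.69, 5.56 and 5.85 in wild-type replicates 1 to 4. The lipid droplet coat gene Plin4 differed by -0.49 and the lipase Lpl by -0.23; without knockout replicate 2 the Plin4 difference was -0.15. In bulk muscle, more fibres holding Car3 RNA and more of it per fibre cannot be told apart.

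Because the protein is bound by glutathione, the thiol and glutathione genes were read beside Car3. Of 24 listed, 20 were measured and 18 passed the filter, with 9 higher and 9 lower in the knockout, a median difference of 0.03 and 0 past the threshold. Gpx1, the cytosolic glutathione peroxidase, stood at 11.23 ± 0.29 on knockout arrays and 10.71 ± 0.23 on wild-type arrays (SD, n = 4 each), and its r with the brighter Car3 probe was 0.89. Gsta4, a glutathione transferase for lipid aldehydes, differed by 0.96 and Prdx3, the mitochondrial peroxiredoxin, by 0.44. Gsr, which regenerates reduced glutathione, differed by -0.88, with r of -0.85.

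**Figure D4:**
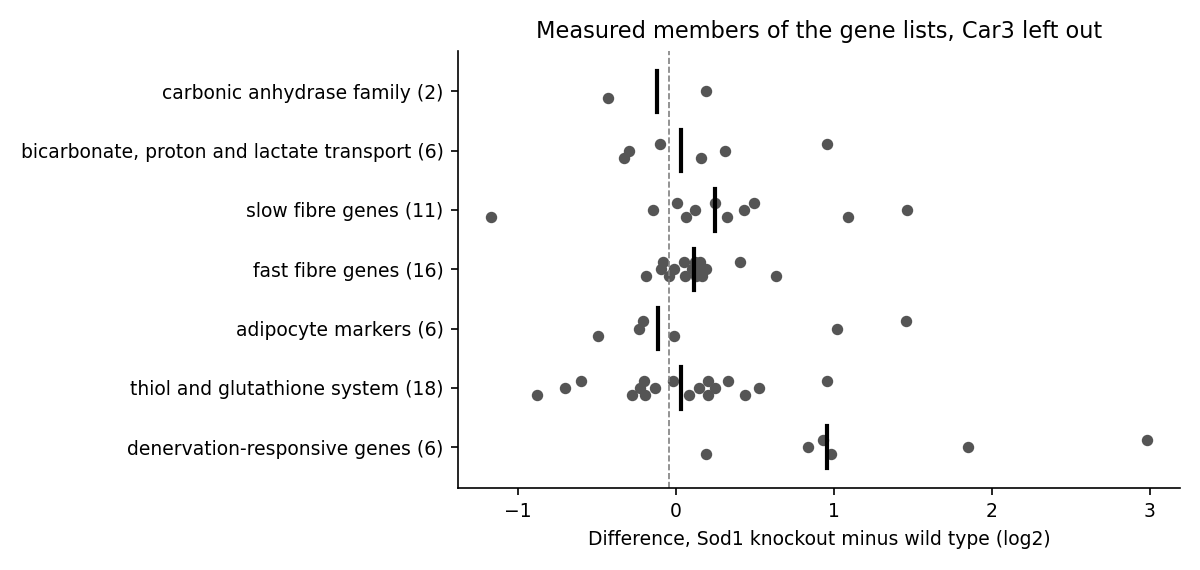
Difference in log2 intensity, Sod1 knockout minus wild type, for each tested member of the 7 gene lists with Car3 left out (dots, number tested in parentheses); black bars are list medians and the dashed line is the median of all tested genes, -0.04. The denervation-responsive genes all lie above 0 with a median of 0.95, and the thiol and glutathione genes lie evenly on both sides.

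Genes with a pattern like that of Car3 were ranked by Pearson's r of log2 intensity over the 8 arrays, among 3781 tested genes with a full gene name. With the brighter probe 39 genes had r above 0.9 and 29 below -0.9; with the dimmer probe there were 25 and 16. Of these, 19 genes exceeded 0.9 with both probes and 6 fell below -0.9 with both. For scale, over all 4698 tested probes the median number of other probes at r above 0.9 was 12, while the brighter Car3 probe had 49 and the dimmer 32; 7.68% and 18.3% of probes had as many or more. These r values rest on 8 arrays, of which knockout replicates 1, 3 and 4 lie apart from the rest at Car3.

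The 10 genes most like the brighter probe were Hes6, Supv3l1, Agtrap, Rhot1, Dtna, Ifitm1, Chrna1, Msrb1, Deptor and Fggy, with r from 0.940 to 0.973. Hes6, a regulator of the Hes family active in muscle differentiation, led with 9.73, 7.40, 9.93 and 9.74 in knockout replicates 1 to 4, against 7.24, 7.42, 7.99 and 7.9974 in wild-type replicates 1 to 4. At this Hes6 probe the wild-type arrays kept their order at the brighter Car3 probe. A second, dimmer Hes6 probe below the filter did not keep it, with 5.99, 5.70, 5.37 and 5.44 in wild-type replicates 1 to 4. Its r with the brighter and dimmer Car3 probe was 0.69 and 0.72, and it differed by 0.46. Agtrap, which binds the angiotensin receptor, had 9.17, 7.51, 8.86 and 8.87 in the knockout, against 7.14, 7.72, 7.43 and 7.63 in the wild type.

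Fggy, a carbohydrate kinase, showed the widest split of these genes, with 9.62, 6.93, 9.26 and 9.30 in knockout replicates 1 to 4, against 6.95, 6.64, 6.54 and 6.68 in wild-type replicates 1 to 4. Replicate 2 was at the wild-type level, and the mean difference was 2.07. Deptor, an inhibitor of the growth kinase mTOR, had 8.84, 7.69, 8.95 and 8.83 in the knockout, against 7.36, 7.30, 8.27 and 7.94 in the wild type. In 8 of the 10 genes knockout replicate 2 lay inside the wild-type range, and the 2 others were Dtna, where it lay above, and Chrna1, where it lay below. The choice by r with a probe at which replicate 2 lies inside that range favours this count, so nothing is read from it. Without that array the differences were 2.14 for Hes6, 1.49 for Agtrap, 2.69 for Fggy and 2.59 for Chrna1, where with all arrays they were 1.54, 1.12, 2.07 and 1.85.

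Not every gene of high r moved far. Supv3l1, a mitochondrial RNA helicase, and Rhot1, which ties mitochondria to their transport motors, had r of 0.969 and 0.954 while their differences between genotypes were 0.28 and 0.27. Msrb1, a methionine sulfoxide reductase that repairs oxidised protein, differed by 0.28, and by 0.59 at a second tested probe. Ifitm1, an interferon-induced membrane protein, differed by 1.11.

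The 10 genes most like the dimmer probe were Pfn1, Scp2, Dtna, Gstz1, Fggy, Igdcc4, Supv3l1, Ccdc12, Lgmn and Chrnb1, with r from 0.931 to 0.966. Of these Dtna, Fggy and Supv3l1, 3 genes, were on both lists. Dtna, which encodes alpha-dystrobrevin, a partner of dystrophin, had 11.48, 10.53, 11.08 and 11.38 in knockout replicates 1 to 4, against 10.09, 10.31, 10.21 and 10.25 in wild-type replicates 1 to 4, with r of 0.953 and 0.963 with the 2 Car3 probes. Pfn1, an actin-binding profilin, had 9.42, 8.82, 9.06 and 9.11 in the knockout, against 8.36, 8.29, 8.24 and 8.35 in the wild type. As at the dimmer Car3 probe, replicate 2 of these 2 genes was the lowest knockout array and still above the wild type.

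Replicate 2 lay inside the wild-type range for 4 of the 10 genes of the dimmer probe, at which replicate 2 itself lay above that range. Scp2, a sterol carrier of peroxisomes, and Gstz1, an enzyme of tyrosine breakdown, differed by 0.45 and 0.40. Igdcc4, an immunoglobulin superfamily member, differed by 0.93 and Lgmn, a lysosomal protease, by 1.22. Mybph, a myosin binding protein and the third largest difference of the table, was singled out after its values were seen: it had 10.01, 7.64, 9.12 and 9.74 in the knockout, against 4.51, 4.41, 6.99 and 8.10 in the wild type, with r of 0.927 and 0.912, and its wild-type arrays 3 and 4 were above 1 and 2 as at both Car3 probes.

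Running opposite to the brighter probe were Asb11, Ubl3, Morf4l1, Eif4b and Ythdf1, with r from -0.968 to -0.954. Asb11, a substrate adaptor for ubiquitin ligases that is found in muscle, had 8.49, 9.66, 8.34 and 8.66 in knockout replicates 1 to 4, against 10.33, 10.16, 9.47 and 9.39 in wild-type replicates 1 to 4. Knockout replicate 2 lay with the wild type, and within the wild type the arrays with more Car3 had less Asb11. Eif4b, a translation initiation factor, had r of -0.955 with a difference of only -0.15, and a second, dimmer Eif4b probe below the filter had r of 0.25, so its probes disagreed.

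The 5 genes most opposite to the dimmer probe were Eed, Tdrd3, Arfip1, Gtdc1 and Ppp1r35, with r from -0.978 to -0.924 and 0 genes shared with the 5 before. Eed, a subunit of the Polycomb repressor PRC2, had 8.17, 8.51, 8.23 and 8.24 in the knockout, against 8.86, 9.13, 8.83 and 8.86 in the wild type. Every knockout array was below every wild-type array for these 5 genes, as the choice by r with a probe whose genotypes are separate would favour. Tdrd3, a Tudor domain protein, differed by -0.60 and Ppp1r35, a centrosome protein, by -0.64.

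**Figure D5:**
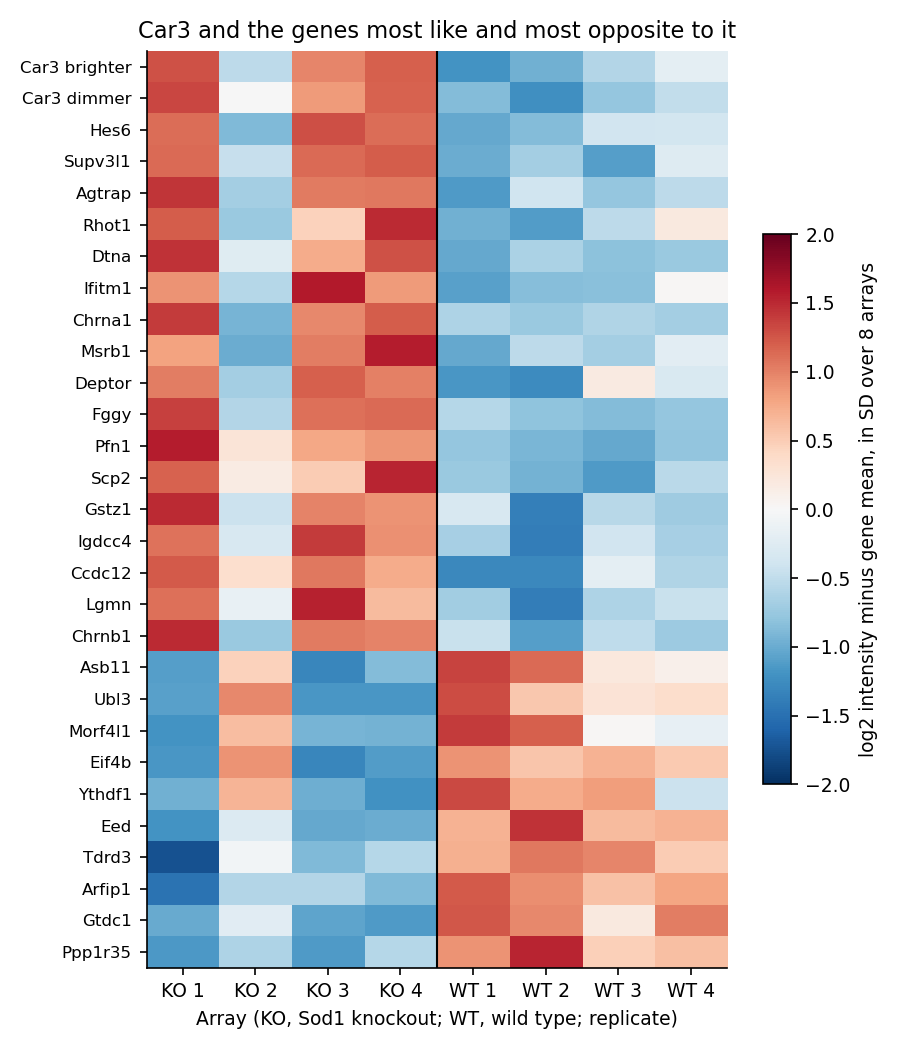
Log2 intensity of the 2 Car3 probes, the 10 genes most like each and the 5 most opposite to each (rows), on each array (columns, Sod1 knockout left of wild type), shown as the deviation from the gene's mean in SD over 8 arrays. Knockout replicate 2 is paler than or opposite in colour to the other knockouts at both Car3 probes, and it lies inside the wild-type range for 8 of the 10 genes most like the brighter probe and 4 of the 10 most like the dimmer one. The choice of these genes by r with Car3 favours a likeness at replicate 2.

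Part of each r came from the genotypes and part from within them. After each genotype's mean was subtracted, r of the 10 genes most like the brighter probe was 0.839 to 0.956, and of those most like the dimmer probe 0.671 to 0.901. Knockout replicate 2 lay farthest from its genotype mean at both Car3 probes, so it weighs heavily on these values. When the 2 arrays farthest from the Car3 median, knockout replicates 1 and 4, were left out, r was 0.855 to 0.980 and 0.837 to 0.974. Knockout replicate 3, at 13.30 on the brighter probe, then stood alone above the rest, so the r values with that probe rest largely on 1 array. At the dimmer probe knockout replicates 3 and 2, at 11.96 and 10.35, both lay above every wild-type array, the highest of which read 9.43. Spearman's rho over all 8 arrays was lower, from 0.690 for Chrna1 to 0.929 for Rhot1 and Ifitm1 with the brighter probe.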

How the data were processed

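RNA of EDL muscle was hybridised as biotinylated cRNA to Illumina arrays, per the labels' protocols. Analysed were log2 intensities as deposited by the authors, 1 column for each of the 8 samples. All columns hold the same sorted values (lowest 3.21, median 6.93, highest 14.19), so they were quantile normalized; a shift of all transcripts cannot be seen. Base 2 was judged from the range; background correction is not given in the sources used here. A second table was not used: its 8 columns match no sample's labels.

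Platform annotation named 1 gene for 8403 of 9232 probes, several for 3 and none for 826; 8399 matched GRCm38.p6 by Entrez number. Tested were the 4698 probes above the array median in at least 4 arrays; the probe of highest mean stood for a gene. Genotypes were compared with limma 3.58.1 (R 4.3.3; lmFit, eBayes), two-sided, with calls at 0.05 after Benjamini-Hochberg adjustment across these probes. Differences are knockout minus wild type. The code was tested on simulated data. The number of arrays limits precision; differences had a median standard error of 0.21.

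The gene, the 7 lists and the tests were chosen with earlier results of these data known. Named by rule were all measured carbonic anhydrases, up to 4 members of smallest p per list, and the 10 genes of highest and 5 of lowest r with each Car3 probe. Replicate numbers are not stated to pair the samples, so the main fit had no block. Deviations of same-numbered arrays correlated at -0.28, -0.15, 0.24 and -0.34. Differently numbered arrays were not compared, so these values cannot exclude pairing.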

Additional observations from a re-analysis of the deposited data

Results flagged for a closer look

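In 112 groups of 4 arrays (2 genotypes; 2 Car3 probes and 54 other genes), 17 held an array far from the other 3; chance does this in about 5% of groups, and many of these genes were picked for following Car3, so their flags repeat 1 pattern. Knockout replicate 2 stood apart at the brighter Car3 probe, at 11.44 against 13.30 to 13.68 in the other knockouts. It was low among the knockouts for Hes6 at 7.40, Fggy at 6.93, Deptor at 7.69, Hdac4 at 7.997 and Supv3l1 at 7.74. It was high among them for Morf4l1 at 7.28, Ubl3 at 11.88, Ythdf1 at 9.46, Eif4b at 7.19 and Gtdc1 at 7.44.

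Other arrays stood apart for 6 genes. Knockout replicate 4 was low for Car2 at 5.09, the others reading 5.39 to 5.41. Knockout replicate 3 was low for Fhl1 at 13.12. Wild-type replicate 2 was high for Eed at 9.13 and low for Gsta4 at 7.59. Wild-type replicate 3 was high for Aqp1 at 12.38, and wild-type replicate 4 was low for Lpl at 11.92.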

How the results depend on the processing

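The Car3 differences kept their direction under every setting run: 1.59 to 2.34 at the brighter and 2.85 to 3.70 at the dimmer probe when 1 array was left out, and likewise with cyclic loess, medians or ranks. The count of probes past the threshold, 0 with all arrays, was 4 with array weights and 0 to 36 with 1 array left out, 36 without knockout replicate 2; a replicate block gave 0, as did the other settings. Slow fibre genes past the threshold numbered 0 to 1, and denervation-responsive genes 0 to 2, with 1 array left out. The cause of these changes was not tested. The membership of the 10 genes most like Car3 was unstable. Of the 10 for the brighter probe, 3 were kept with Spearman's rho, 2 after subtracting genotype means, 4 with no filter, 2 without the 2 farthest arrays and 4 to 8 with 1 array left out. For the dimmer probe these were 3, 0, 5, 1 and 4 to 8, the lowest count for both probes being without wild-type replicate 2. The difference of Car14 turned to -0.08 without knockout replicate 1 and to -0.19 without wild-type replicate 2 (range -0.19 to 0.47). Without knockout replicate 2, 10 of the genes named by rule passed the threshold, besides Myl3, which was singled out later. Over all probes 36 of 4698, or 0.766%, passed. These 10 genes were all picked for their r with Car3, at which replicate 2 was the lowest knockout array. That choice favours their passing, so nothing is read from the count. With 1 array left out, list medians near 0 turned sign: adipocyte markers -0.32 to 0.31, carbonic anhydrases -0.41 to 0.06, transport genes -0.06 to 0.11 and thiol genes -0.03 to 0.08. Of the genes named by rule, differences moved over 1.5 times without knockout replicate 2 for Hdac4 (1.36), Atp6v1a (0.47), Plin4 (-0.15), Car14 (0.33) and Aqp1 (-0.19). Among genes singled out later, so did Gadd45a (0.98 to 1.87), Tnnt1 (0.44), Tnnc1 (0.20), Myl2 (-0.64), Myl3 (-1.97) and Rapsn (0.03). Other small differences also moved by as much: Bsg -0.49 to -0.18, Lpl -0.42 to -0.13, Aqp4 0.02 to 1.53 and Casq1 0.21 to 0.89.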
